A study of Mus musculus with 40 samples.

Results

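Choroid-enriched genes were compared between mice with an endothelial deletion of *Tgfbr2* and control littermates that had received control food. A gene was taken as choroid-enriched where its mean over the 20 choroids of the series was at least 10 normalized counts and at least 4 times its mean over the 20 retinas, and 3849 of 54307 listed genes were chosen by this rule. Of these, 3830 were matched to the annotation, 3315 of them protein-coding and 347 long non-coding. The tissue levels selected the genes and are not a result, and neither genotype nor diet entered the rule. Just inside the lower level lay *Blk*, with a mean of 10.06 in choroid, and just outside lay *Gm14461*, with 9.997. Just inside the ratio lay *Dgka*, at 4.0005 times the retina, and just outside lay *Cd9*, at 3.998 times.

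Mice of both sexes on the C57BL/6J background were used, which all carried 2 floxed alleles of *Tgfbr2*. *Tgfbr2*ΔEC mice also carried Cdh5-CreERT2, a tamoxifen-inducible recombinase under the promoter of the endothelial cadherin gene, and the controls were littermates without it. Tamoxifen eye drops were given to both at an age of 6 to 7 weeks. Choroid with its laser lesions was taken 3 days after 6 laser burns per eye, which break Bruch's membrane and start choroidal neovascularization. The groups compared were control - PLX (mice 1 to 5) and *Tgfbr2*ΔEC - PLX (mice 6 to 10), and the corresponding groups of 5 mice each fed PLX5622 (PLX), an inhibitor of the CSF1 receptor that depletes mononuclear phagocytes, are given beside them. The values are normalized counts of polyadenylated RNA of whole tissue, in which fewer cells of a type and less RNA per cell cannot be told apart.

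The choroid is a vascular layer whose inner capillaries have fenestrated walls and supply the retinal pigment epithelium (RPE) and the photoreceptors. TGF-β ligands bind the receptor encoded by *Tgfbr2*, which recruits and activates a type I receptor, and the receptor complex phosphorylates SMAD proteins that bind short DNA elements and alter transcription. In endothelial cells this pathway is known to act on vessel maturation, on matrix deposition and on the interaction with mural cells.

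Endothelial markers were well expressed in these tissues. *Cdh5*, the cadherin of endothelial junctions, was at 3808 ± 528 (SD, n = 5) normalized counts in control - PLX and 4039 ± 575 in *Tgfbr2*ΔEC - PLX choroids. *Pecam1*, an endothelial adhesion molecule, was at 2859 ± 314 and 3146 ± 176, and *Plvap*, which forms the diaphragms of fenestrae, at 5516 ± 720.2 and 6070.1 ± 1014. The values of all 3 genes overlapped between the groups.

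The targeted gene did not separate the genotypes at the level of the whole gene. *Tgfbr2* (chromosome 9, 115913361 to 116004800, reverse strand of GRCm39) was at 10849, 10709, 10794, 10328 and 9836 normalized counts in control - PLX mice 1 to 5. In *Tgfbr2*ΔEC - PLX mice 6 to 10 it was at 9489.8, 10294, 11066, 11303.5 and 8729. The values overlapped, and the log2 difference was -0.05 (95% interval -0.24 to 0.13, adjusted p = 0.925). The counts add up all exons and all cell types of the tissue, so that they do not test the deletion of the floxed part in endothelial cells.

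Libraries differed in the share taken by genes of the neighbouring retina. Retina-enriched genes, chosen by the opposite ratio, made up 1.30 to 1.67% of the summed values of a control - PLX choroid. In *Tgfbr2*ΔEC - PLX choroids they made up 1.97 to 3.51%, and the ranges did not overlap. A neural retina score, the mean log2 level of photoreceptor and neuronal genes, lay at 6.83 to 9.50 for the controls and at 10.3 to 11.97 for the *Tgfbr2*ΔEC mice of the same diet. These ranges did not overlap either, so that a fit with this score cannot tell its part from that of genotype. The slope of such a fit rests on the spread within groups, which was largest in control + PLX (SD 2.13, against 0.73 to 1.18). Mice depleted of phagocytes thus enter that slope. The share of choroid-enriched genes was 33.6 to 35.2% and 31.6 to 34.3%. With PLX, the share of retina-enriched genes spanned 1.362 to 3.82% for controls and 1.41 to 1.69% for *Tgfbr2*ΔEC mice. The deposited scaling uses all genes together, and the part of these shares in the results was not tested. By sex-specific genes, 3 of 5 control - PLX and 2 of 5 *Tgfbr2*ΔEC - PLX mice were male.

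**Figure D1:**
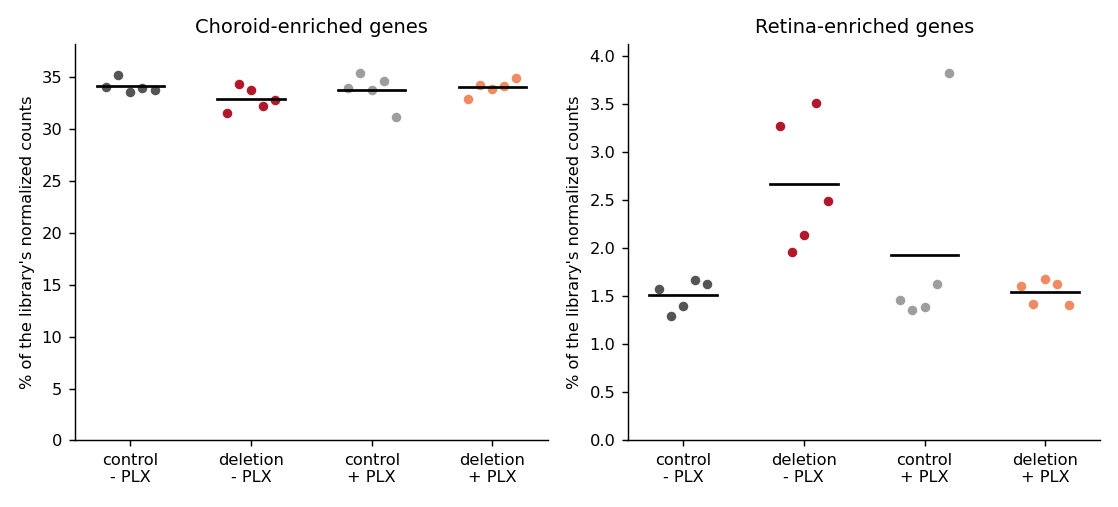
Share of the normalized counts of each choroid taken by choroid-enriched genes (left) and retina-enriched genes (right), in percent; points are mice, 5 per group, and lines are group means. Tgfbr2 deletion choroids without PLX5622 lie between 1.97 and 3.51% for retina-enriched genes and control choroids without PLX5622 between 1.30 and 1.67%.

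No choroid-enriched gene was called between the genotypes on control food. None passed an adjusted p of 0.05 in limma, the lowest adjusted p being 0.168, and over all genes tested 1 of 23619 passed (0.00423%). At an unadjusted p under 0.05, 50 choroid-enriched genes (1.30%) were higher in *Tgfbr2*ΔEC - PLX choroids, against 6.99% of all genes tested. A further 107 (2.78%) were lower, against 2.26% of all genes tested. All values of one group lay above all values of the other for 5 genes that were higher (0.130%, against 2.38% of all genes) and 19 that were lower (0.494%, against 0.436%). The shares of lower genes were thus near the background, and those of higher genes were below it. The balance of directions depended on the scaling: scaled on the median of the choroid-enriched genes, 96 were higher and 58 lower, and scaled on their total, 101 and 55. Without mice 6 and 9, which had the highest shares of retina-enriched genes in these groups, 74 were higher and 58 lower. With the neural retina score in the fit, 73 were higher and 53 lower. Leaving out mouse 9 alone gave 27 higher genes, and leaving out mouse 2 gave 71 lower ones. All 3849 genes had passed the filter on low values.

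The median log2 difference of the choroid-enriched genes was -0.07, with 90% of them between -0.66 and 0.38, and the median over all genes tested was 0.01. For the choroid-enriched genes it was -0.013 and -0.0063 with these scalings and 0.013 with the neural retina score in the fit. The scalings divide each library by the level of these same genes. A smaller median and an even shift of all lists thus follow from the scaling itself. The scalings moved the median of each of 25 gene lists upwards by about 0.05 and 0.06, and those of 5 lists (fenestrated capillary, leukocyte adhesion, complement, basement membrane and elastic fibre, and TGF-β ligands, receptors and SMADs) turned from negative to positive. Of the choroid-enriched genes, 1473 had a positive and 2374 a negative difference. The median half-width of the 95% interval, which is not adjusted for the number of genes, was 0.47 on the log2 scale. Larger differences also missed the adjusted p, such as that of *Cmah* (-0.96, adjusted p = 0.168 in limma). When only the 10 choroids on control food were fitted, *Cmah* alone among the choroid-enriched genes was called (adjusted p = 0.0273), against 0.851% of all genes tested.

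Of 30 pan-endothelial genes listed, 25 were choroid-enriched, with a median log2 difference of 0.10, and 20 of the 25 differences were positive. The median was 0.15 and 0.16 with the scalings on choroid-enriched genes, and without mice 6 and 9 it was 0.08, with 16 of 25 positive. Leaving out 1 mouse gave medians of 0.07 (mouse 9) to 0.16 (control mouse 5). Only *Sox7* and *Sox17* reached an unadjusted p under 0.05, and none passed the adjusted p. *Sox17*, a transcription factor of arterial endothelium, was at 521, 267, 424, 344 and 381 normalized counts in the 5 control - PLX mice. It was at 452, 579, 572, 818 and 440.2 in the 5 *Tgfbr2*ΔEC - PLX mice. The lowest *Tgfbr2*ΔEC values lay within the control range, and the log2 difference was 0.56 (95% interval 0.13 to 0.99, exact permutation p = 0.0317, adjusted p = 0.337). Its relative *Sox7* differed by 0.29 (adjusted p = 0.532). *Sox13*, a further SOX transcription factor that was in no list, had the lowest p among higher genes. Its values were 849, 821, 1012, 854 and 974 in control - PLX and 1336, 1068, 1072, 1206 and 1058 in *Tgfbr2*ΔEC - PLX. Every *Tgfbr2*ΔEC value lay above every control value, and the log2 difference was 0.35 (95% interval 0.15 to 0.54). The exact permutation p was 0.00794, the smallest that 5 mice against 5 allow, and the adjusted p was 0.193.

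Of the 12 choroid-enriched genes of arteries, veins and lymphatics, 10 differences were positive, with a median of 0.25, and *Gja4*, *Gja5*, *Sema3g* and *Ccl21a* had an unadjusted p under 0.05. *Ccl21a* was at 0 in every control choroid of both diets, so that it met the minimum level only through *Tgfbr2*ΔEC mice. Without it, 9 of 11 differences were positive and the median was 0.18. That median was 0.24 with either scaling, 0.14 with the sex score (from sex-specific genes) and 0.18 with the neural retina score in the fit, and 0.28 without mice 6 and 9. Of the 11 genes 3 were higher at an unadjusted p under 0.05, against 5 with either scaling, 3 with the sex score, 2 with the neural retina score and 1 without mice 6 and 9. *Gja4* encodes connexin 37, a gap junction protein of arterial endothelium. It was at 543, 441, 381, 497 and 474 normalized counts in control - PLX and at 575, 554, 591, 762 and 623 in *Tgfbr2*ΔEC - PLX. The groups did not overlap, and the log2 difference was 0.41 (95% interval 0.07 to 0.75, exact permutation p = 0.00794, adjusted p = 0.389). *Gja5*, encoding the arterial connexin 40, was at 434, 121, 278, 275 and 416 and at 734, 459.9, 469, 592 and 229.9, with one *Tgfbr2*ΔEC mouse below 4 of the controls, and its log2 difference of 0.73 was 0.44 without control mouse 2. The semaphorin gene *Sema3g* was at 1216, 909, 1407, 896 and 1300.3 and at 1490.5, 1749, 1593, 1709.8 and 1102, with a difference of 0.42 and again one *Tgfbr2*ΔEC mouse within the control range. *Ccl21a*, a chemokine of lymphatic endothelium with near-identical gene copies, was at 0, 123, 116, 0 and 3.15 in *Tgfbr2*ΔEC - PLX mice, so that 2 mice carried its level.

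Another connexin differed in the other direction. *Gja1*, encoding connexin 43, is in no list and was chosen after its values had been seen, because its groups did not overlap. Its log2 difference was -0.41 (adjusted p = 0.281) without PLX and 0.12 with PLX.

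**Figure D2:**
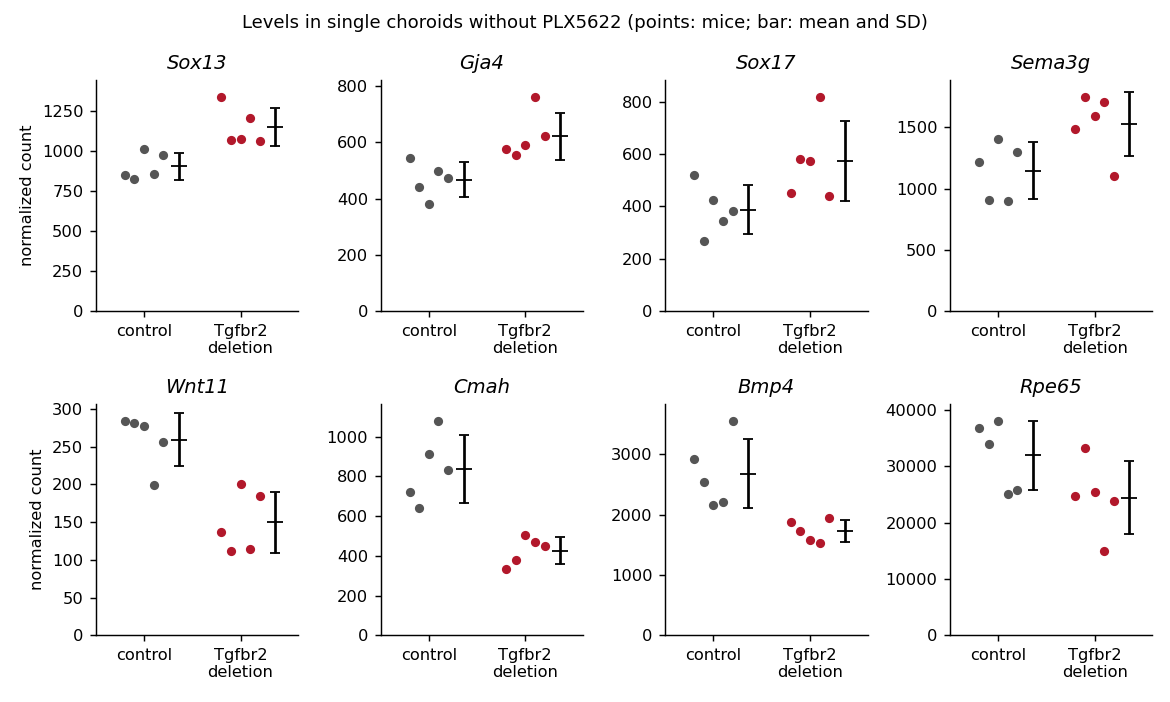
Normalized counts of 8 genes in single choroids without PLX5622, with axes starting at 0; points are mice, 5 per group, and bars are mean and SD. Sox13, Gja4, Cmah and Bmp4 do not overlap between control and Tgfbr2 deletion, and Sox17, Sema3g, Wnt11 and Rpe65 do.

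Fenestrated capillary genes had a median difference of -0.02 over 11 genes, and none reached an unadjusted p under 0.05. The median was 0.03 and 0.04 with the scalings, 0.03 with the neural retina score, -0.05 with the sex score and 0.02 without mice 6 and 9. Leaving out 1 mouse gave -0.18 (mouse 10) to 0.08 (mouse 8). *Plvap* differed by 0.13 (95% interval -0.14 to 0.40) and *Rgcc* by -0.02. Among 14 mural cell genes the median was 0.06, and it was 0.11 and 0.12 with the scalings and 0.03 with the sex score. Leaving out 1 mouse gave -0.02 (control mouse 1) to 0.15 (control mouse 4). *Rgs5*, a regulator of G protein signalling in pericytes, was the only one with an unadjusted p under 0.05, at 15353 ± 1988 normalized counts (SD, n = 5) in control - PLX and 18124 ± 1508 in *Tgfbr2*ΔEC - PLX (log2 difference 0.24, adjusted p = 0.497). The smooth muscle genes *Acta2* and *Tagln* differed by 0.05 and 0.16.

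Of 16 angiogenic genes, with a median difference of 0.02 (0.07 and 0.08 with the scalings, 0.04 with the neural retina score and -0.01 without mice 6 and 9), only *Aplnr*, the apelin receptor of sprouting and venous endothelium, had an unadjusted p under 0.05. It was at 290.4, 234, 443, 328 and 1010.0 normalized counts in control - PLX and 1182, 679, 669, 1078 and 1083 in *Tgfbr2*ΔEC - PLX. Control mouse 5 lay inside the *Tgfbr2*ΔEC range and the other 4 controls below it, and the log2 difference was 1.19 (95% interval 0.32 to 2.06, adjusted p = 0.294). Its ligand gene *Apln* differed by -0.42. The growth factors *Vegfc* and *Vegfd* differed by -0.01 and 0.04. Of 6 leukocyte adhesion genes, 4 differences were negative and 2 positive, from -0.10 to 0.52, with a median of -0.05 (0.03 with the sex score and -0.09 with the neural retina score, and 0.08 without mouse 7). *Icam1* and *Vcam1*, the first listed, differed by -0.07 and -0.10.

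Of 25 listed ligands, receptors and SMADs, 13 were choroid-enriched, with a median difference of 0.00 (0.05 and 0.06 with the scalings, 0.09 with the neural retina score, -0.02 with the sex score and 0.05 without mice 6 and 9). The ligands *Tgfb1* and *Tgfb3* differed by -0.08 and -0.05. *Bmp4*, a ligand of the related BMP receptors, was at 2916, 2544, 2167, 2219 and 3550.1 normalized counts in control - PLX and 1883, 1723, 1581, 1526 and 1939 in *Tgfbr2*ΔEC - PLX. The groups did not overlap, and the log2 difference was -0.61 (95% interval -0.97 to -0.25, exact permutation p = 0.00794, adjusted p = 0.199). Bmp2, a related ligand gene outside the list that was named after its values were seen, differed by -0.31 (adjusted p = 0.491). Among 15 genes known to respond to TGF-β or BMP, 11 differences were negative and the median was -0.11, but none reached an unadjusted p under 0.05. The median was -0.06 and -0.05 with the scalings, -0.32 with the neural retina score, -0.16 with the sex score and -0.18 without mice 6 and 9. Without control mouse 2 it was -0.04 and without control mouse 1 -0.17. The BMP-responsive regulators *Id1*, *Id2* and *Id3* differed by -0.21, -0.28 and -0.25, and the SMAD co-repressor gene *Ski* by 0.00.

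Promoter windows of *Gja4*, *Sema3g* and *Bmp4* are given as examples of the vascular and ligand genes described above. They comprise 250 bases upstream of the RefSeq start site in GRCm38.p6, 5′ to 3′ on the strand of the gene, and capitals mark the Smad binding element CAGAC on either strand. The *Gja4* window is chr4:127314040-127314289 (reverse strand), that of *Sema3g* chr14:31217623-31217872 (forward strand) and that of *Bmp4* chr14:46390670-46390919 (reverse strand).
*Gja4*: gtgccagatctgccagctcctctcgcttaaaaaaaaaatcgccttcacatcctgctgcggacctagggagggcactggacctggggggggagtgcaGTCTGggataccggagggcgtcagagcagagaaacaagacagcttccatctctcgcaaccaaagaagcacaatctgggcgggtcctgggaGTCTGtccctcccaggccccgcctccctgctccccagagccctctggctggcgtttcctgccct
*Sema3g*: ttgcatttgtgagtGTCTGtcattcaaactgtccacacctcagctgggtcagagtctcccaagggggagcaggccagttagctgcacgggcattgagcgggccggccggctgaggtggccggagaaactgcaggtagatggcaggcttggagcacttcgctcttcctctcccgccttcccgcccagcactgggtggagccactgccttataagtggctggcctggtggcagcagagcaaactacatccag
*Bmp4*: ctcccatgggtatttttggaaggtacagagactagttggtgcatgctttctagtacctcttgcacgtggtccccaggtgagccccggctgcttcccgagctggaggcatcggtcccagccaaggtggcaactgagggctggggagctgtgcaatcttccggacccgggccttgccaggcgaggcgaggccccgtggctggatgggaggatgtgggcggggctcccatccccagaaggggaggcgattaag
The element occurred 2 times in the *Gja4* window, 1 time in that of *Sema3g* and 0 times in that of *Bmp4*. The windows of *Gja5*, *Sox13* and *Socs3* had none, and of 2 windows each of *Wnt11* and *Cmah*, which had negative differences, 1 held it, so that these examples show no direction. It was present in 42.2% of 32851 promoter windows and in 44.2% of the 3312 windows of choroid-enriched genes. Among windows of the genes at an unadjusted p under 0.05, it was in 20 of 40 for higher and 33 of 83 for lower genes. The GC-rich Smad element GGCGCC, searched in the same windows, was in 9.59% of all promoter windows and 10.3% of those of choroid-enriched genes, and in 3 of 40 for higher and 17 of 83 for lower genes. The Sox core AACAAT was in 9.42% of all windows, in 6.55% of those of choroid-enriched genes, and in 2 of 40 and 3 of 83. All motifs were read on both strands. A match of 5 or 6 letters is a description of the sequence and does not show a site that is bound.

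Stromal genes had small differences in both directions. All 27 listed stromal fibroblast genes were choroid-enriched, their median difference was 0.05, and none reached an unadjusted p under 0.05. The median was 0.10 and 0.11 with the scalings, 0.13 with the neural retina score, 0.01 with the sex score and 0.10 without mice 6 and 9. Leaving out 1 mouse gave 0.00 (mouse 7) to 0.12 (mouse 6). *Col1a1* and *Col1a2*, the chains of type I collagen, were at 138008 ± 7884 (SD, n = 5) and 143098 ± 8706 normalized counts in control - PLX. In *Tgfbr2*ΔEC - PLX they were at 153113 ± 32088 and 156495 ± 19861. Of the 27 differences, 17 were positive, and the highest was 0.23. The most negative of the list, named after their values were seen, were those of *Postn* (-0.42) and *Dpt* (-0.47), which encode matrix proteins. The median of 17 basement membrane and elastic fibre genes was 0.00 (0.05 and 0.06 with the scalings, 0.12 with the neural retina score and 0.03 without mice 6 and 9), and the collagen IV genes *Col4a1* and *Col4a2* differed by 0.15 and 0.09. With the sex score the median of these 17 genes was -0.01, and leaving out 1 mouse gave -0.03 (mouse 10) to 0.05 (control mouse 4).

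RPE genes had mostly negative differences. Of 23 listed genes 21 were choroid-enriched, 18 of the 21 differences were negative, and the median was -0.25 on the log2 scale beside -0.07 over all choroid-enriched genes. *Rpe65*, the isomerase of the visual cycle, was at 36856, 33980.2, 38007, 25101 and 25751.5 normalized counts in control - PLX. It was at 24771, 33174, 25404, 14927 and 23886 in *Tgfbr2*ΔEC - PLX. Mouse 9 was the lowest, and mouse 7, the highest of its group, lay below 3 of the controls, with a log2 difference of -0.41 (95% interval -0.81 to -0.01, adjusted p = 0.519). *Ermn*, which encodes an actin-binding protein, was at 4086 ± 1005 and 2891 ± 798 (log2 difference -0.51, adjusted p = 0.397). *Best1*, a chloride channel of the RPE, went the other way at 66.4, 45.3, 48.3, 30.95 and 43.8 and 27.8, 63.8, 35.9, 198 and 80.8, with mouse 9 above all others, and its log2 difference was 0.47 with mouse 9 and 0.06 without it. Mouse 9 also had the highest share of retina-enriched genes of these 10 mice. Without mouse 9 the difference of *Rpe65* was -0.24, without mice 6 and 9, the highest in that share, it was -0.21, and after adding the neural retina score to the fit it was -0.20. The median of the 21 genes was then -0.10 and -0.08, and without mouse 9 alone it was -0.15. The genes of melanin synthesis, which RPE and choroidal melanocytes share, had a median difference of 0.00 over 11 genes (0.06 with either scaling, 0.08 with the neural retina score and 0.14 without mice 6 and 9), with *Pmel* at 0.08 and *Tyr* at -0.08. The median of these 11 genes was -0.01 with the sex score, and leaving out 1 mouse gave -0.06 (mouse 7) to 0.06 (control mouse 1 or mouse 6).

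Of 27 choroid-enriched macrophage and microglia genes, 24 differences were negative and the median was -0.08, close to the -0.07 of all choroid-enriched genes, of which 61.7% were negative, and none reached an unadjusted p under 0.05. With the scalings on choroid-enriched genes 17 and 16 were negative, and with the neural retina score in the fit 6 were negative and the median was 0.15. Without mice 6 and 9, 24 were negative and the median was -0.09. The median was -0.02 with either scaling and -0.04 with the sex score, and leaving out 1 mouse gave -0.12 (mouse 8) to -0.03 (control mouse 2). *Csf1r*, the receptor inhibited by PLX, was at 8229, 8325, 8435, 8163 and 8902 normalized counts in control - PLX and 6489.9, 7918, 8160.4, 8148 and 7577 in *Tgfbr2*ΔEC - PLX. Its groups did not overlap by the narrow gap between control mouse 4 and mouse 8, and the log2 difference was -0.14 (95% interval -0.35 to 0.07, adjusted p = 0.771). *Aif1*, which encodes IBA1, was at 346 to 562 and 324 to 415. The antigen presentation genes *Cd74* and *H2-Aa* differed by -0.19 and -0.17, in a list of 17 monocyte and phagocyte genes with a median of -0.14 (-0.08 with either scaling, and 0.01 with the neural retina score in the fit, 9 of 17 positive, and -0.06 without control mouse 5). Without mice 6 and 9 the median of this list was -0.16, with 13 of 17 negative.

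Cytokine genes had negative differences in 13 of 16 cases, with a median of -0.35, and *Socs3*, *Ccl2* and *Il1b* reached an unadjusted p under 0.05. With the neural retina score in the fit, 7 of 16 were negative and the median was 0.03, and with the sex score it was -0.23. The median was -0.30 and -0.29 with the scalings. Without mice 6 and 9 it was -0.28, with 13 of 16 negative. *Socs3*, a feedback inhibitor of cytokine receptors, was at 1060.2, 1753, 1449, 1103 and 1835 normalized counts in control - PLX and 791, 660.3, 1472, 711 and 613 in *Tgfbr2*ΔEC - PLX. Mouse 8 alone of the *Tgfbr2*ΔEC mice lay in the control range, and the log2 difference was -0.80 (95% interval -1.35 to -0.26, exact permutation p = 0.0317, adjusted p = 0.241). The monocyte chemoattractant gene *Ccl2* was at 435, 442, 476, 374 and 361 and 331, 354, 335, 249 and 212, without overlap (log2 difference -0.51, adjusted p = 0.465). *Il1b*, an inflammatory cytokine, differed by -0.99 (adjusted p = 0.535). *Il6* was at 10.1, 35.4, 1.17, 5.22 and 13.5 and 5.95, 3.905, 7.13, 3.24 and 3.55, with its highest level in control mouse 2 and a log2 difference of -0.78 (95% interval -1.93 to 0.37), which was -0.30 without control mouse 2 and -1.31 without control mouse 3. Its values in mice 7, 9 and 10 were near the level of 3 reads, and that in control mouse 3 was below it. *Fga*, the fibrinogen alpha chain, is not choroid-enriched and was listed at 0 in 9 of these 10 choroids and at 1.01 in mouse 7, which is about 1 read.

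Mast cell genes had the most negative median of the leukocyte lists, -1.37 over 7 genes, and the proteases *Mcpt4* and *Tpsb2* reached an unadjusted p under 0.05. *Mcpt4* was at 49.2, 195, 251, 194 and 70.4 in control - PLX and 27.5, 15.1, 41.9, 58.1 and 98.4 in *Tgfbr2*ΔEC - PLX, with mice 9 and 10 inside the control range (adjusted p = 0.468). The mast cell receptor gene *Kit* and the factor *Gata2*, which other cells also express, differed by 0.12 and 0.29. With PLX all 7 differences were positive, with a median of 0.51. Without mouse 11 (control + PLX), 4 of the 7 were positive and the median was 0.02.

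Neutrophil genes (7, median -0.11), lymphocyte and dendritic cell genes (12, -0.17), complement genes (13, -0.01), coagulation genes (11, -0.17) and cell cycle genes (12, -0.12) had no member at an unadjusted p under 0.05. With the neural retina score in the fit, the medians of the neutrophil, complement and coagulation lists were positive, at 0.18, 0.055 and 0.04, and without mice 6 and 9 those of the neutrophil and complement lists were 0.07 and 0.03. Without those mice the medians of the coagulation and cell cycle lists were -0.08 and -0.25, and that of the lymphocyte and dendritic cell list was -0.10. With the scalings the medians were -0.05 for neutrophil, -0.11 for lymphocyte and dendritic cell, 0.05 for complement, -0.12 and -0.11 for coagulation and -0.07 and -0.06 for cell cycle genes. With the sex score that of the lymphocyte and dendritic cell list was -0.07. Leaving out 1 mouse turned the median of the cell cycle list to 0.00 (mouse 10), that of the complement list to between -0.10 (control mouse 5) and 0.03 (mouse 8), and that of the neutrophil list to between -0.23 (control mouse 3) and 0.12 (mouse 7). The lymphocyte and dendritic cell median was -0.02 without control mouse 5 and -0.05 without mouse 7, and the coagulation median -0.07 without mouse 6. The 2 genes listed first in each differed by -0.56 for *S100a9* and -0.22 for *S100a8*, by -1.38 for *Cd3d* and -0.24 for *Cd3e*, by 0.13 for *C3* and -0.13 for *C4b*, by -0.18 for *Plat* and -0.17 for *Plau*, and by -0.09 for *Mki67* and -0.05 for *Top2a*. Interferon-stimulated genes had 12 of 14 negative differences without PLX (median -0.18, *Isg15* -0.22, *Ifit1* -0.09), 2 of 14 with the neural retina score in the fit (median 0.13), a median of -0.06 without control mouse 3, and 14 of 14 positive ones with PLX (median 0.35). Without mice 6 and 9, 12 of 14 differences without PLX were negative and their median was -0.17. Without mouse 17 (*Tgfbr2*ΔEC + PLX) 11 of 14 were positive with PLX and the median was 0.10.

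All 14 skeletal muscle genes (median -0.33), all 9 Schwann cell and myelin genes (median -0.22) and all 4 haemoglobin genes (median -1.18) had negative differences, none with an unadjusted p under 0.05. Scaled on the choroid-enriched genes, 2 of the 9 myelin genes turned positive and the muscle and haemoglobin genes stayed negative. With the neural retina score in the fit the medians were -0.75 for muscle, -2.23 for haemoglobin and -0.07 for myelin genes, with 3 of the 9 myelin genes positive. Without mice 6 and 9 the myelin median was -0.10 and 1 muscle gene was positive. Single mice carried much of these values. Without mouse 8 the muscle median was -0.06, with 11 of 14 genes negative, and without control mice 3 and 4 in turn it was -0.13 and -0.10. The myelin median was -0.11 without control mouse 3, and the haemoglobin median was -0.66 without control mouse 1. The muscle gene *Ckm* lay at 4861 to 22894 normalized counts among controls and 3988 to 17581 among *Tgfbr2*ΔEC mice, and *Acta1* at 11124 to 42865 and 8424 to 32239.5, and without mouse 8 they differed by -0.05 each. Of the haemoglobin genes, whose copies are near-identical, *Hba-a1* lay at 204 to 2055 among controls and 147 to 532 among *Tgfbr2*ΔEC mice, and *Hba-a2* differed by -0.98. Of the lens and immediate early lists 1 gene each was choroid-enriched, *Lim2* (-0.37) and *Zfp36* (-0.13), and of the 17 neural retina genes none was.

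**Figure D3:**
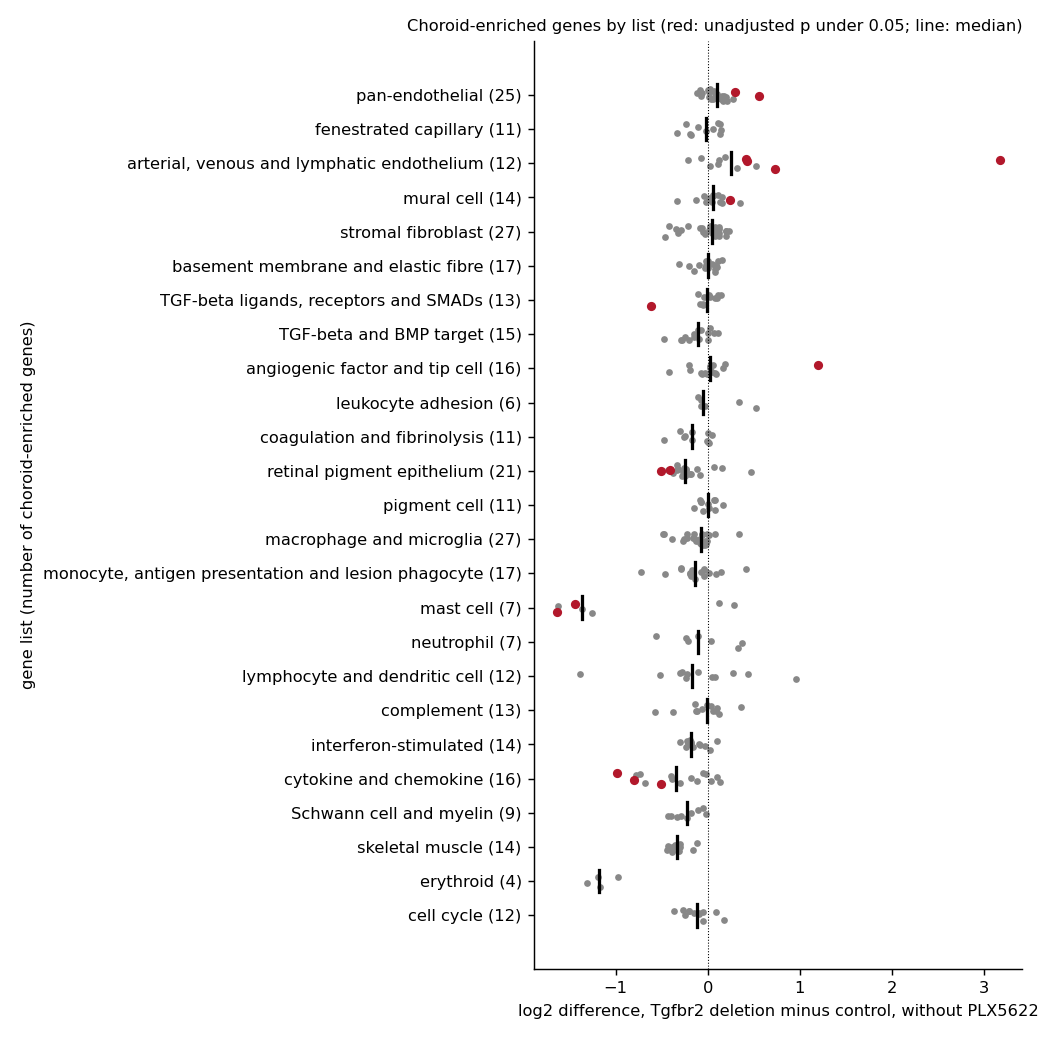
Log2 differences (Tgfbr2 deletion minus control, without PLX5622, 5 mice each) of the choroid-enriched genes of 25 lists; each point is a gene, black lines are medians, and red points have an unadjusted p under 0.05. The medians run from -1.37 (mast cell) to 0.25 (arterial, venous and lymphatic endothelium, 0.18 without Ccl21a), and no gene passed the adjusted p.

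Outside these lists, *Wnt11* and *Cmah* had the lowest p-values. *Wnt11*, a secreted WNT ligand (chromosome 7, 98484319 to 98504402, forward strand of GRCm39), was at 284, 281, 277, 199 and 256 normalized counts in control - PLX and 138, 112, 200.4, 115 and 184 in *Tgfbr2*ΔEC - PLX. The groups overlapped only between control mouse 4 and mouse 8, and the log2 difference was -0.81 (95% interval -1.20 to -0.43, exact permutation p = 0.0159, adjusted p = 0.168). *Cmah*, a sialic acid hydroxylase (chromosome 13, 24511222 to 24661360, forward strand of GRCm39), was at 721, 643, 912, 1078 and 832 and 334, 377, 505, 469.7 and 450.1. Its groups did not overlap, and the log2 difference was -0.96 (95% interval -1.43 to -0.49, exact permutation p = 0.00794, adjusted p = 0.168). *Acod1*, which makes itaconate in activated macrophages, was at 73.3, 63.4, 152, 81.8 and 89.4 and 49.6, 32.4, 37.05, 22.5 and 16.3, also without overlap (log2 difference -1.54, adjusted p = 0.199). *Myf5*, a muscle regulatory factor, was at 21.1, 27.05, 30.5, 14.2 and 33.4 and 0, 2.98, 8.05, 7.53 and 5.27, with *Tgfbr2*ΔEC mice near the level of 3 reads. *Duoxa1*, the maturation factor of a dual oxidase, lay at 28.1 to 46.01 among controls and 2.51 to 24.7 among *Tgfbr2*ΔEC mice. *Tmem184a* differed by -1.59, with 2 controls at 171 and 199 and the other 3 at 27.8 to 62.2, and the tubulin gene *Tuba1c* by -0.30. *Apol9b*, which has a near-identical copy, differed by -1.09.

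Among the higher genes with the lowest p-values were *Sec16b*, a gene of endoplasmic reticulum export sites (log2 difference 0.34), and *Rasl12*, which encodes a RAS-like protein (0.28, adjusted p = 0.293). *Prnd*, encoding the prion-like protein doppel, was at 0, 121, 146, 0 and 0 in control - PLX and 63.7, 75.2, 105, 281 and 197 in *Tgfbr2*ΔEC - PLX. It was at 0 in 3 controls and overlaps *Prn*, a read-through gene of the prion locus named after its values were seen. The log2 difference of *Prnd* was 4.13 without and -3.41 with PLX, and that of *Prn* was -3.68 and 1.95, so that the assignment of reads between both genes is uncertain. The pseudogenes *Gvin-ps3* and *Gm16531*, which share reads with related copies, and the non-coding *Gm29100* differed by 1.33, 2.42 and 1.40, at mean levels of 11.2, 37.5 and 16.2 normalized counts in *Tgfbr2*ΔEC - PLX.

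The same contrast was fitted in the mice fed PLX, which were other animals. Of the 50 higher genes, 41 (82.0%) also had a positive difference with PLX, beside 63.1% of all choroid-enriched genes with a positive difference. An unadjusted p under 0.05 in limma there, in the same direction, was found for 3 of the 50, beside 56 of all 1473. Of the 107 lower genes, 58 (54.2%) were also negative, beside 43.8% of all with a negative difference. An unadjusted p under 0.05 in the same direction was found for 1 of the 107, beside 23 of all 2374. The median difference of the 50 genes was 0.47 without and 0.16 with PLX, and that of the 107 genes -0.59 and -0.04. As the genes were picked by their values without PLX, the smaller values in the second set of mice are a description and not a comparison of diets.

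The difference between the diets was not called for any choroid-enriched gene by limma (lowest adjusted p = 0.332), nor for any of all genes tested (0%). At an unadjusted p under 0.05, 131 choroid-enriched genes (3.40%) differed between diets, against 6.57% of all genes tested. *Acod1* was at 22.02, 10.9, 4.09, 3.56 and 12.9 in control + PLX and 22.5, 38.7, 13.9, 11.6 and 19.8 in *Tgfbr2*ΔEC + PLX, with a log2 difference of 1.07 there against -1.54 without PLX (unadjusted p of the difference in limma, 0.000426). *Apol9b* had 0.91 against -1.09. *Sox13*, *Gja4* and *Sox17* had 0.10, 0.16 and 0.11 with PLX, in the direction seen without it, and *Wnt11*, *Cmah* and *Bmp4* had -0.21, -0.14 and -0.08.

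**Figure D4:**
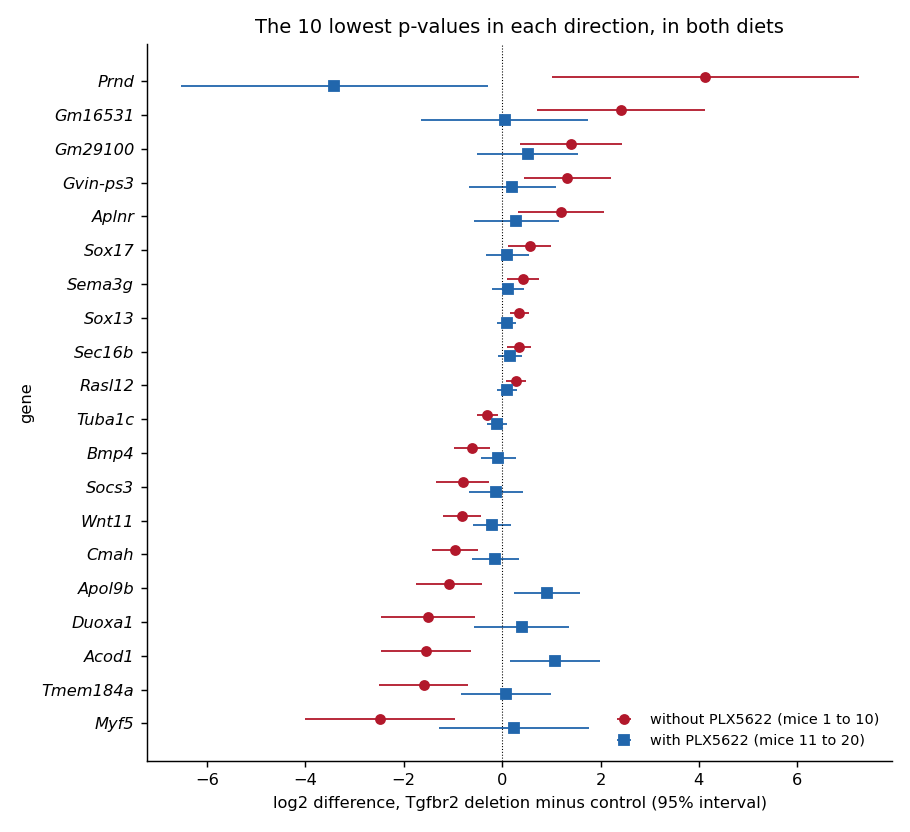
Log2 differences with 95% intervals of the 10 choroid-enriched genes with the lowest p in each direction without PLX5622 (circles, mice 1 to 10), beside the same contrast with PLX5622 (squares, mice 11 to 20). The genes were picked on the circles; Acod1 stands at -1.54 without and 1.07 with PLX5622.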

How the data were processed

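RNA of 20 choroids and 20 retinas was available, with 5 mice in each combination of genotype and diet, grouped by the sample labels. The deposited signal per gene was made by the authors, who estimated counts with Salmon 1.10.1 against GRCm39 and normalized them with DESeq2 1.36.0 (versions per the submitters' processing notes). These values are not whole numbers. By the spacing of low values, a single read equalled 0.905 to 1.195 normalized counts in a choroid, which gives an approximate depth of 21628874 to 28174821 reads. Only 63.1 to 78.7% of low values lay within 0.1 of a whole read, so that no test on counts was run. Replicates correlated at 0.943 to 0.972 across genes in the groups without PLX, a value over genes, which are not independent. A level of 3 reads was treated as the floor, for counting error only.

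Genes were named by GENCODE release 39, which is later than the authors' release 29. The test was limma (version 3.58.1, trend option, R 4.3.3) on log2(normalized count + 1), over the 23619 genes that averaged 1 or more in the 20 choroids. The 4 groups entered one fit, p-values were adjusted over all these genes by Benjamini-Hochberg, and 0.05 was the threshold. On this scale the fold of weakly expressed genes is understated. Two-sided exact permutation tests over 252 splits were added for single genes. The sex and neuronal covariates of the study are not in the labels, and scores of marker genes replaced them in alternatives. The procedure was tested on simulated data with known changes and independent noise. These data held no difference in retinal RNA or sex between the groups, so that the test does not cover such differences.

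The choroid-enriched genes and the 28 gene lists were chosen with earlier results of these data known. Named genes are *Tgfbr2*, the 10 lowest p-values in each direction, the first 2 choroid-enriched genes and those at an unadjusted p under 0.05 of each list, *Il6*, *Fga*, *Cdh5* and the genes next to each threshold. Of these, 3 single genes are not reported here. Other genes were named after their values had been seen, as further members of the lists or because their groups did not overlap. Alternatives were other pseudocounts, filters, scalings, covariates, tissue ratios, a fit of 10 choroids, a robust variance and leaving out each mouse. Leaving out mice 6 and 9 together was added after seeing the data. Medians of lists were recomputed without each mouse, and one list without *Ccl21a*, also after seeing the data. Promoter sequences came from RefSeq for GRCm38.p6, where 2663 choroid-enriched genes had a window. Computation used Python 3.11.15, numpy 2.4.6 and pandas 2.3.3.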

Additional observations from a re-analysis of the deposited data

Results flagged for a closer look

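In 8 of 160 groups of 5 mice examined over the named genes, 1 mouse stood apart from the other 4 by Dixon's ratio (gap to the nearest mouse over the range of the group, critical value 0.71). Chance alone sets apart about 1 in 20 groups, or 8 of these. In control - PLX these were mouse 5 for *Gm16531* (62.5 normalized counts, next 15.98, ratio 0.744) and for *Aplnr* (1010.0, next 443, ratio 0.731), mouse 4 for *Sec16b* (707, next 609, ratio 0.724), mouse 1 for *Hba-a2* (432, next 139, ratio 0.717) and mouse 2 for *Gm14461* (53.7, next 9.29, ratio 0.908). In *Tgfbr2*ΔEC - PLX they were mouse 8 for *Socs3* (1472, next 791, ratio 0.793), mouse 6 for *Hba-a2* (139, next 50.4, ratio 0.751) and mouse 7 for *Fga* (1.01, the others at 0, ratio 1).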

How the results depend on the processing

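No paired analysis was possible because the groups compared share no mouse numbers. The count of called choroid-enriched genes was 0 in the fits with other pseudocounts, filters, covariates, scalings or a robust variance, 1 when 10 choroids were fitted (*Cmah*) and 0 to 2 without 1 mouse, the 2 being *Cmah* and *Wnt11* without mouse 15 (control + PLX), which had the highest share of retina-enriched genes of all choroids. The 50 higher and 107 lower genes at an unadjusted p under 0.05 became 96 and 58 when scaled on the median of the choroid-enriched genes and 101 and 55 when scaled on their total, so that the balance of the directions depends on the scaling. The corresponding median differences were -0.013 and -0.0063, in place of -0.07, a change that follows from scaling on these same genes. With the neural retina score 73 genes were higher and 53 lower and the median was 0.013, and without mice 6 and 9 there were 74 higher and 58 lower genes. Genes whose groups did not overlap (5 higher, 19 lower) numbered 10 and 7 with the first scaling, 13 and 8 with the second, and 58 and 64 without mice 6 and 9, where fewer mice make a separation easier. Ratios of at least 2 and at least 10 to the retina took in 5648 and 2425 genes, with 77 and 32 higher, 172 and 59 lower, and 11 and 3 higher and 31 lower (at 2) without overlap. Without 1 mouse the ranges were 27 to 71 higher (27 without mouse 9), 71 to 140 lower (71 without mouse 2), 7 to 30 and 23 to 43 without overlap (30 higher without mouse 6, 43 lower without mouse 1), and -0.078 to -0.042 for the median. The causes were not tested. Of 80 named genes tested, 57 kept their direction in every alternative, including *Sox13*, *Gja4*, *Sox17*, *Wnt11*, *Cmah*, *Bmp4* and *Rpe65*. The other 23 changed sign in at least 1 of 31 fits, with no call on either side. With scaling on the median of the choroid-enriched genes these were *Tgfbr2* (0.0017), *Rgcc* (0.0345), *Vegfc* (0.0403), *Top2a* (0.0037), *Dgka* (0.0050) and *Cd9* (0.0521). With scaling on their total these were *Tgfbr2* (0.0095), *Rgcc* (0.0422), *Tgfb3* (0.0060), *Vegfc* (0.0480), *Top2a* (0.0114), *Dgka* (0.0127) and *Cd9* (0.0598). With the sex score these were *Acta2* (-0.0028), *Ski* (-0.0223), *Vegfc* (0.0293) and *Cd9* (0.0016). With the neural retina score these were *Tgfbr2* (0.0552), *Rgcc* (0.0310), *Acta2* (-0.0757), *Tagln* (-0.1521), *Tgfb1* (0.0346), *Ski* (-0.0022), *Vegfc* (0.0586), *Tyr* (0.0419), *S100a8* (0.1799), *Isg15* (0.1494), *Ifit1* (0.1420), *Top2a* (0.1247), *Blk* (-0.3710), *Gm14461* (0.5206) and *Cd9* (0.0415). With mice 6 and 9 left out these were *Rgcc* (0.1350), *S100a8* (0.1542), *Zfp36* (0.0183), *Blk* (-0.1079) and *Cd9* (0.0348). Over the fits without 1 mouse the sign varied for *Tgfbr2* (-0.0908 to 0.0024), *Rgcc* (-0.1816 to 0.1201), *Acta2* (-0.0672 to 0.1712), *Tgfb3* (-0.1713 to 0.0377), *Ski* (-0.0324 to 0.0521), *Vegfc* (-0.1338 to 0.0972), *Vegfd* (-0.1910 to 0.1882), *Pmel* (-0.0006 to 0.1689), *S100a8* (-0.4493 to 0.1340), *Cd3e* (-0.4291 to 0.0199), *C3* (-0.0191 to 0.2567), *Ifit1* (-0.2547 to 0.0468), *Mki67* (-0.1804 to 0.0635), *Top2a* (-0.1567 to 0.0892), *Blk* (-0.0663 to 0.4262), *Gm14461* (-0.3678 to 0.4412), *Dgka* (-0.1163 to 0.0181) and *Cd9* (-0.0424 to 0.0295). Depth limits the genes near 10 normalized counts most.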
